A study of Homo sapiens with 3 samples.

Results

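The 10 genes described here encode integrin subunits that bind laminin or fibronectin and related RGD ligands: ITGA3, ITGA5, ITGA6, ITGA7, ITGAV, ITGB3, ITGB4, ITGB5, ITGB6 and ITGB8. They were taken by gene symbol, and the rule that names them uses no measured value, although it was written with earlier results of these data known. All 10 of 10 were found among the 16149 genes listed in the mRNA sequencing of 3 human hepatocellular carcinoma (HCC) cell cultures. The parental culture is HCCLM3, a human HCC line, which the labels describe as having a low ability to metastasize. The study's methods name the parental line HCCLM3-R, a derivative carrying red fluorescent protein, and ascribe to it a high metastatic potential, so the sources differ on this. Subclone 1 is labelled as more metastatic with specificity for the lung, and subclone 2 as metastatic to the lung and to the celiac lymph node. Per the study's methods, the subclonal lines were grown from single cells taken from metastatic foci of nude mouse xenografts, so each is 1 clone. All were cultured in DMEM, no treatment is named, and the labels do not say which named monoclone was sequenced.

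Each cell line had 1 library, so no test between cell lines was possible, and nothing below measures the spread between cultures. Levels are given as deposited, in RPKM, the reads of a gene scaled by its length and by the total reads of its library. The values fell on whole reads, with totals of 4488825 reads for the parental line, 4609696 for subclone 1 and 4725150 for subclone 2. The 95% intervals are exact Poisson intervals for levels and exact (Clopper-Pearson) binomial intervals for ratios between libraries, and they cover counting error only. Of 7 hepatocyte markers, 6 were above 0 in the parental line and their summed level was 7.14 RPKM there, 70.4 RPKM in subclone 1 and 83.8 RPKM in subclone 2. Albumin (ALB) was at 2.46, 49.5 and 68.8 RPKM in the parental line, subclone 1 and subclone 2, while TTR was not listed in the parental line or subclone 1. The parental culture thus had few reads of hepatocyte markers (25 of ALB, 1 of SERPINA1). The summed levels of other cell types' markers are given with the ITGA5 and ITGB3 results.

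Integrins are receptors of an α and a β chain that span the cell membrane and tie the extracellular matrix to the actin or keratin cytoskeleton. ITGA3, ITGA6 and ITGA7 pair with ITGB1 to bind laminins, the main glycoproteins of basement membranes, and ITGA6 also pairs with ITGB4 in hemidesmosomes, the junctions that link keratin filaments to the basement membrane. ITGA5 pairs with ITGB1 in the classical fibronectin receptor, and ITGAV pairs with ITGB1, ITGB3, ITGB5, ITGB6 or ITGB8 to bind ligands with an RGD motif, such as fibronectin, vitronectin, osteopontin and latent TGF-β.

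The members fell into abundant and scarce genes, and the same genes made up each class in all 3 libraries. ITGA3, ITGA5, ITGA6, ITGAV, ITGB4 and ITGB5 lay between 18.7 and 80.9 RPKM, from 497 to 2095 reads. ITGA7, ITGB3, ITGB6 and ITGB8 lay between 0.0247 and 2.57 RPKM, from 1 to 58 reads. The lowest abundant value exceeded the highest scarce one in each library, with ITGB4 above ITGB3 by 7.55-fold in subclone 1 (5.75 to 10.1), where the gap was narrowest. ITGB1, the shared β partner and no member, was more abundant than any of them, at 288 RPKM in the parental line, 356 RPKM in subclone 1 and 322 RPKM in subclone 2. In a culture, fewer cells that express a gene and less RNA per cell cannot be told apart.

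**Figure D1:**
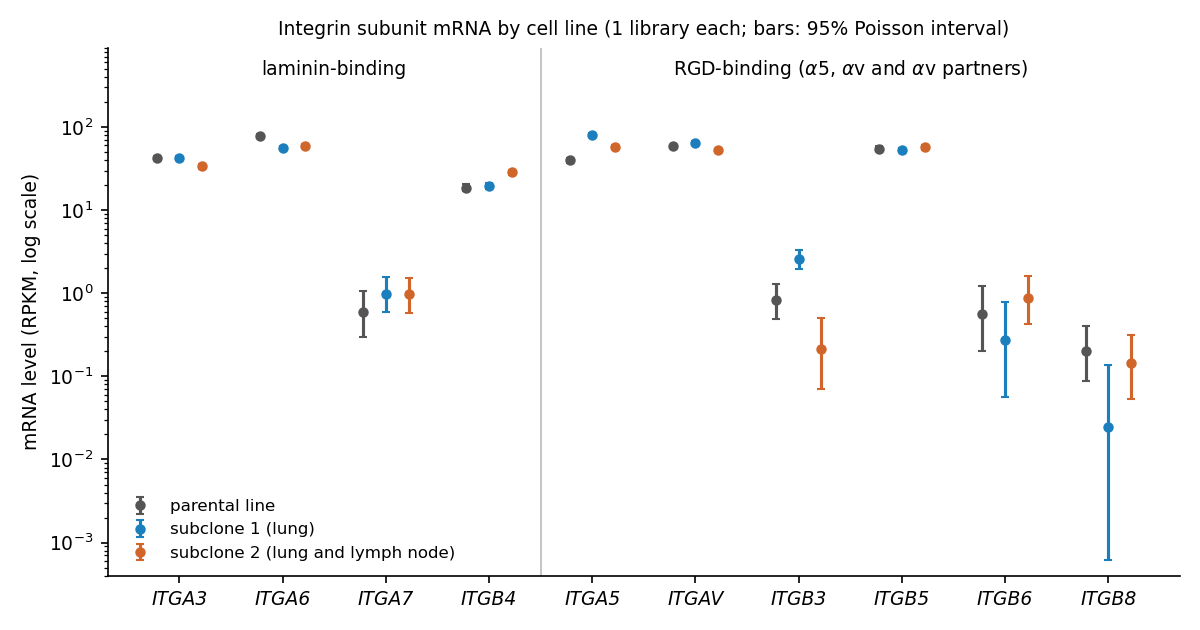
Level of each of the 10 integrin subunits in RPKM (log scale) in the parental line (grey), subclone 1 (blue) and subclone 2 (orange), 1 library each, with 95% Poisson intervals. The 6 abundant genes sit between 18.7 and 80.9 RPKM in every library, the scarce genes at or below 2.57 RPKM, and ITGB3 and ITGA5 are the genes whose points spread most among the subunits with a mean of at least 1 RPKM.

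The order of the abundant members differed between the lines. In the parental line ITGA6 was highest, 1.34-fold above ITGAV (1.26 to 1.42), followed by ITGB5, which could not be told from ITGAV at this depth (ratio 1.06, 0.980 to 1.16). ITGA3 and ITGA5 came next and could not be told apart either (1.07, 0.968 to 1.17), and ITGB4 was lowest of the abundant genes. In subclone 1 ITGA5 moved to the top, 1.25-fold above ITGAV (1.17 to 1.34). ITGA6, which followed ITGAV in that library, did not differ from ITGB5 beyond counting error (1.05, 0.961 to 1.14). In subclone 2 ITGA6, ITGA5 and ITGB5 were level, with a ratio of 1.04 between the first and the second (0.961 to 1.12) and 1.00 between the second and the third (0.917 to 1.09). Among the scarce genes ITGB3 stood first in subclone 1, 2.59-fold above ITGA7 (1.52 to 4.60), stood first in the parental line without a difference beyond counting error (1.39, 0.621 to 3.25), and in subclone 2 lay below ITGB6, which exceeded it 4.08-fold (1.27 to 15.2).

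Ratios between libraries were taken as log2 of (RPKM + 0.1) and set against the 11370 genes with a mean of at least 1 RPKM over the libraries, of which 7 are members. ITGA7, ITGB6 and ITGB8 have lower means (0.851, 0.571 and 0.124 RPKM). ITGB3, with a mean of 1.20 RPKM, passed this limit only through its level in subclone 1. For subclone 1 over the parental line, 4.9% of the 11370 genes were higher by 2-fold or more and 1.82% were lower by as much. Of the 7 members above this limit, 2 were at least 2-fold higher, ITGA5 and ITGB3, and none lower, and ITGB8 among the 3 below it was at least 2-fold lower. For subclone 2 over the parental line, with 5.33% of genes higher and 2.16% lower, none of the 7 was higher and 1, ITGB3, was lower. For subclone 2 over subclone 1, with 1.42% higher and 1.39% lower, ITGB3 alone of the 7 was lower, and ITGB6, below the limit, was higher from 3 and 10 reads. With so few members these shares are counts of named genes and not shares that can be read against the background. The median log2 ratio of the 10 members was 0.02, -0.05 and 0.03 in the order of these comparisons, against 0.0043, 0.037 and 0.034 for the 11370 genes. For the 7 members that passed the same limit as those genes, it was 0.054, -0.15 and -0.29. The median of all 10 for subclone 1 turned negative after division by ACTB (-0.11) or GAPDH (-0.03). That for subclone 2 over the parental line turned positive with GAPDH (0.01). That between the subclones turned negative after centring on the median of all genes (-0.0017). The sign of each median of the 10 thus depends on the scaling. The comparisons over the parental line share its library, so an error in it would enter both.

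**Figure D2:**
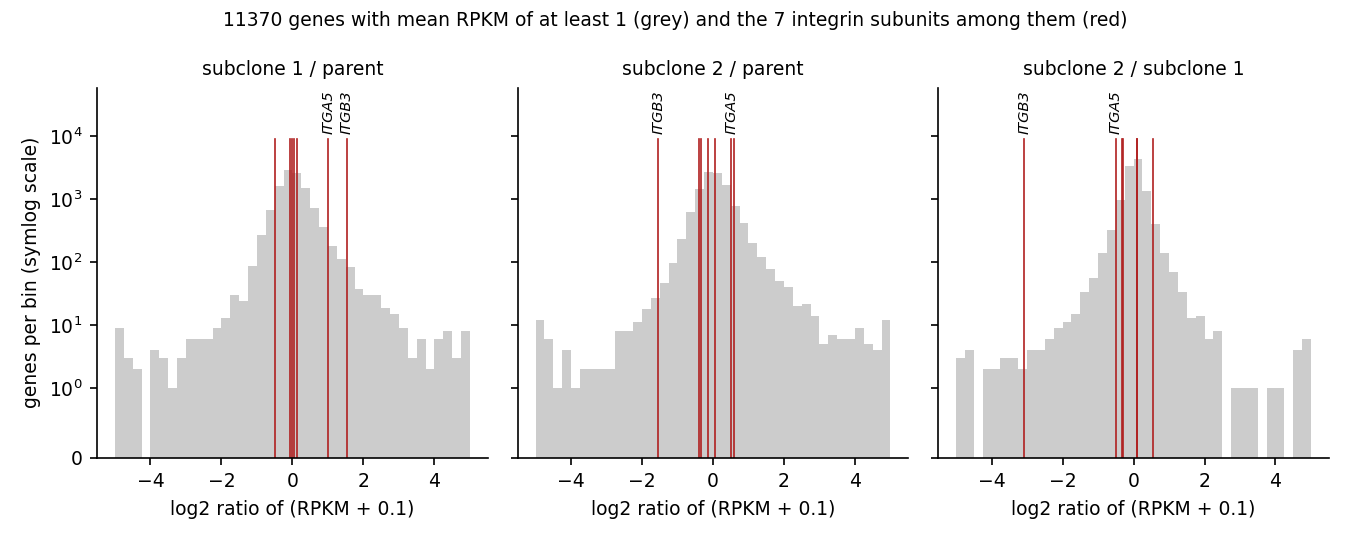
Number of genes (symlog scale) by log2 ratio of (RPKM + 0.1) for the 11370 genes with a mean of at least 1 RPKM, in bins of 0.25, the outermost of which also hold genes beyond them; red lines mark the 7 members among them. Most members lie in the body of each distribution, while ITGB3 lies at 1.54, -1.54 and -3.08 and ITGA5 at 1.01, 0.52 and -0.50.

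Among the laminin-binding subunits, ITGA6 was lower in both subclones than in the parental line. Its mRNA was at 78.4 RPKM in the parental line (2044 reads, 95% interval 75.0 to 81.8), 55.5 RPKM in subclone 1 (1487 reads, 52.7 to 58.4) and 59.4 RPKM in subclone 2 (1630 reads, 56.5 to 62.3). The intervals of the subclones overlapped each other and lay below that of the parental line. The level in subclone 1 was 0.708 times that of the parental line (0.662 to 0.758) and the level in subclone 2 was 0.758 times (0.709 to 0.809), at percentiles 10.2 and 13.5 of the 11370 genes. The gene maps to chromosome 2 (plus strand, 172427354 to 172506282) in GRCh38, as do all positions given here, and its principal transcript has 26 exons.

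ITGA3, the other abundant α chain for laminin, followed a different order. It had 42.6 RPKM in the parental line (965 reads, 40.0 to 45.4), 42.3 RPKM in subclone 1 (983 reads, 39.7 to 45.0) and 33.9 RPKM in subclone 2 (808 reads, 31.6 to 36.3). The parent and subclone 1 could not be distinguished (ratio 0.992, 0.907 to 1.09), and subclone 2 was lower than the parental line at 0.795-fold (0.724 to 0.874) and than subclone 1 at 0.802-fold (0.730 to 0.881). ITGA3 maps to chromosome 17 (plus strand, 50055968 to 50090481), with 26 exons.

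ITGB4, whose product has a cytoplasmic tail far longer than that of other β chains and binds plectin in hemidesmosomes, was higher in subclone 2. Its level was 18.7 RPKM in the parental line (497 reads, 17.1 to 20.4), 19.4 RPKM in subclone 1 (530 reads, 17.8 to 21.1) and 28.5 RPKM in subclone 2 (798 reads, 26.6 to 30.6). Subclone 2 was the one library whose interval lay apart from the others. It exceeded the parental line 1.53-fold (1.36 to 1.71) and subclone 1 1.47-fold (1.31 to 1.64), at percentiles 87.9 and 94.8, while subclone 1 over the parental line was 1.04-fold (0.917 to 1.18). ITGB4 maps to chromosome 17 (plus strand, 75721328 to 75757818) and has 40 exons.

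ITGA7, the α chain of the laminin receptor known from skeletal and heart muscle, was scarce. It had 11 reads in the parental line (0.590 RPKM), 19 in subclone 1 (0.993 RPKM) and 19 in subclone 2 (0.969 RPKM). The folds over the parental line of 1.68 (0.761 to 3.91) and 1.64 (0.742 to 3.82) were not distinguishable from 1 at this depth. The gene maps to chromosome 12 (minus strand, 55684568 to 55716043), with 25 exons.

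Because ITGB4 pairs with ITGA6 alone, their ratio within a library was computed as well, which needs no scaling between libraries. ITGB4 mRNA was 0.238 times ITGA6 mRNA in the parental line (0.216 to 0.263), 0.350 times in subclone 1 (0.316 to 0.386) and 0.480 times in subclone 2 (0.441 to 0.523). The 3 intervals did not overlap. The ratio was thus 2.01 times that of the parental line in subclone 2 (exact conditional interval of the odds ratio, 1.77 to 2.30) and 1.47 times in subclone 1 (1.27 to 1.69). In subclone 1 ITGA6 was lower and ITGB4 not distinguishable from the parental line, while in subclone 2 ITGA6 was lower and ITGB4 higher. The ratio of ITGA6 to ITGA3 was 1.84 in the parental line, 1.31 in subclone 1 and 1.75 in subclone 2, so that subclone 1 had the smaller excess of ITGA6 over ITGA3, at 0.714 times the ratio of the parental line (0.638 to 0.799), whereas subclone 2 did not differ from the parental line in it beyond counting error (0.952, 0.849 to 1.07).

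**Figure D3:**
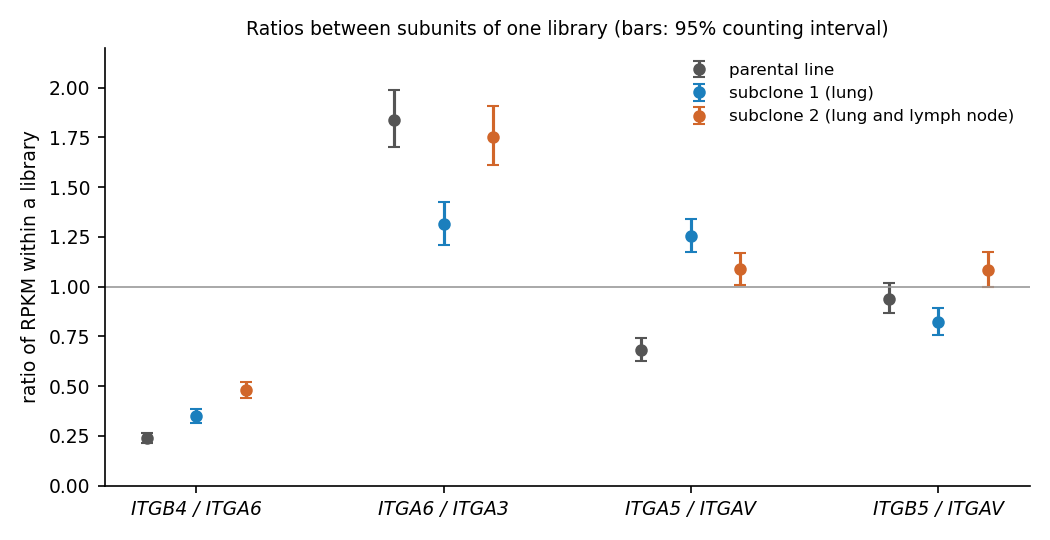
Ratio of the RPKM of subunits within each library, with 95% counting intervals, for the parental line (grey), subclone 1 (blue) and subclone 2 (orange). ITGB4 over ITGA6 goes from 0.238 in the parental line to 0.350 and 0.480 in the subclones, and ITGA5 over ITGAV from 0.682 to 1.25 and 1.09.

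ITGA5, the α chain of the fibronectin receptor, showed the widest difference of the abundant members. Its mRNA was at 40.0 RPKM in the parental line (766 reads, 37.2 to 42.9), 80.9 RPKM in subclone 1 (1591 reads, 77.0 to 85.0) and 57.2 RPKM in subclone 2 (1154 reads, 54.0 to 60.6). The 3 intervals were separate, with subclone 1 highest and the parental line lowest. The fold over the parental line was 2.02 in subclone 1 (1.85 to 2.21) and 1.43 in subclone 2 (1.31 to 1.57), at percentiles 95.2 and 84.9, and subclone 2 had 0.708 times the level of subclone 1 (0.655 to 0.764). The log2 ratio in subclone 1, 1.01, stood at the edge of the 2-fold limit and fell short of it after division by ACTB (0.88) or GAPDH (0.96) and with a pseudocount of 1. The summed hepatocyte markers were also higher in both subclones (levels above). Of the 7, FGB had 27, 242 and 96 reads, APOA1 had 1, 3 and 2, and SERPINA1 had 1, 4 and 1, so these were highest in subclone 1 like ITGA5. ALB with 25, 517 and 736 reads, APOB with 19, 80 and 278, AFP with 22, 39 and 41 and TTR with 0, 0 and 2 were highest in subclone 2. The endothelial markers summed to 4.74, 11.8 and 7.56 RPKM in the parental line, subclone 1 and subclone 2, the order of ITGA5. Within that list PECAM1 followed this order, KDR and VWF did not, and CDH5 had 0, 1 and 0 reads. The leukocyte and platelet markers, at 76.0, 113 and 101 RPKM, also had this order. That sum was nearly all CD68, which followed the order, as did PF4 (0.468, 0.911 and 0.889 RPKM, from 1, 2 and 2 reads). PTPRC and ITGA2B did not follow the order. The part of all these markers in the ITGA5 result was not tested. ITGA5 maps to chromosome 12 (minus strand, 54395261 to 54419460), with 30 exons.

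ITGAV, the α chain shared by most RGD receptors, differed little. It had 58.6 RPKM in the parental line (1854 reads, 56.0 to 61.3), 64.5 RPKM in subclone 1 (2095 reads, 61.8 to 67.3) and 52.7 RPKM in subclone 2 (1754 reads, 50.2 to 55.2). Subclone 1 was 1.10-fold above the parental line (1.03 to 1.17) and subclone 2 was at 0.899-fold (0.841 to 0.960). The log2 ratio of subclone 1, 0.14, was 0.0056 after division by ACTB. The gene maps to chromosome 2 (plus strand, 186590065 to 186680901), with 30 exons. Within a library, ITGA5 was at 0.682 times ITGAV in the parental line (0.626 to 0.743), 1.25 times in subclone 1 (1.17 to 1.34) and 1.09 times in subclone 2 (1.01 to 1.17). ITGA5 was thus below ITGAV in the parental line and above it in both subclones. Relative to ITGB1, with which it pairs, ITGA5 went from 0.139 in the parental line to 0.227 in subclone 1 and 0.178 in subclone 2, which is 1.64 times (1.49 to 1.80) and 1.28 times (1.16 to 1.42) the ratio of the parental line.

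Of the β chains that pair with ITGAV apart from ITGB1, nearly all mRNA was ITGB5, the subunit of the vitronectin receptor of epithelial cells and fibroblasts. It made up 97.2% of the summed RPKM of ITGB3, ITGB5, ITGB6 and ITGB8 in the parental line, 94.9% in subclone 1 and 97.9% in subclone 2. Its level was 55.1 RPKM in the parental line (839 reads, 51.4 to 59.0), 53.0 RPKM in subclone 1 (829 reads, 49.5 to 56.8) and 57.2 RPKM in subclone 2 (916 reads, 53.5 to 61.0), and all 3 intervals overlapped. The folds of 0.962 (0.873 to 1.06), 1.04 (0.943 to 1.14) and, for subclone 2 over subclone 1, 1.08 (0.980 to 1.19) bound any difference between the libraries from counting to less than 1.19-fold. ITGB5 maps to chromosome 3 (minus strand, 124761948 to 124901418) and has 15 exons.

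ITGB3, the β chain of the platelet fibrinogen receptor and of αvβ3, the receptor known from angiogenic endothelium and invasive tumor cells, was scarce but differed most. It had 18 reads in the parental line (0.819 RPKM, 0.486 to 1.29), 58 in subclone 1 (2.57 RPKM, 1.95 to 3.32) and 5 in subclone 2 (0.216 RPKM, 0.0702 to 0.505). Subclone 1 lay above the others, while the intervals of the parental line and subclone 2 overlapped at their ends. The fold over the parental line was 3.14 in subclone 1 (1.82 to 5.66, percentile 97.8) and 0.264 in subclone 2 (0.0766 to 0.737, percentile 0.866). Subclone 2 had 0.0841 times the level of subclone 1 (0.0263 to 0.208), at percentile 0.163 of the 11370 genes. Because ITGB3 is among these genes only through subclone 1, its percentiles in comparisons with subclone 1 are partly set by the limit on the mean. For subclone 2 over the parental line it is also ranked only through subclone 1, and the percentile rests on 18 and 5 reads. With a pseudocount of 1 the log2 ratios over the parental line, 1.54 and -1.54, became 0.97 and -0.58 and so lay within 2-fold.

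The summed level of the fibroblast markers moved in the same order as ITGB3. The summed level of 5 fibroblast markers, 4 of them listed and PDGFRB at 0, was 5.58 RPKM in the parental line, 7.08 RPKM in subclone 1 and 3.25 RPKM in subclone 2. Within the list COL1A1 had 9, 11 and 1 reads, COL1A2 had 1, 1 and 0, COL3A1 had 109, 56 and 12, and DCN had 8, 47 and 30, so COL1A1 followed the order of ITGB3 while COL3A1 and DCN did not. The 4 endothelial markers summed to 4.74, 11.8 and 7.56 RPKM, with KDR at 1.36, 1.93 and 3.08 RPKM, VWF at 2, 1 and 1 reads, PECAM1 at 3.33, 9.81 and 4.46 RPKM and CDH5 at 0, 1 and 0 reads. Of the 5 leukocyte and platelet markers, CD3E was not listed, PTPRC had 2, 0 and 0 reads and PF4 had 1, 2 and 2 reads. ITGA2B, the platelet partner of ITGB3, had 2, 4 and 1 reads. The sums over these markers, 76.0, 113 and 101 RPKM, were nearly all CD68. The part of other cell types in the ITGB3 result was not tested. ITGB3 maps to chromosome 17 (plus strand, 47253846 to 47311816), with 15 exons, and shares 2266 exon bases with AC068234.1, so that reads of these genes cannot be told apart over these bases. The shared exon bases were 966 for ITGB6, 351 for ITGA6, 203 for ITGAV, 98 for ITGB8, 52 for ITGA7 and 48 for ITGA5, and 0 for ITGA3, ITGB4 and ITGB5.

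ITGB6, the β chain of the epithelial receptor αvβ6, which binds and activates latent TGF-β, had 6 reads in the parental line (0.558 RPKM, 0.205 to 1.21), 3 in subclone 1 (0.272 RPKM, 0.0560 to 0.793) and 10 in subclone 2 (0.883 RPKM, 0.423 to 1.62). All intervals overlapped. Subclone 2 over subclone 1 was 3.25-fold with an interval from 0.837 to 18.4, so no difference was detectable at this depth. Its log2 ratio of 1.40 became 0.57 with a pseudocount of 1. The gene maps to chromosome 2 (minus strand, 160099666 to 160200313). The length behind its RPKM was 2397 bases, against 4675 for its principal transcript of 15 exons in GENCODE, so that reads beyond the authors' gene model would not have been counted. Among the other members the lengths differed most for ITGB5 (3392 against 4372 bases) and ITGB3 (4894 against 3995). Orders and ratios between genes depend on these lengths, which the counting intervals do not cover.

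ITGB8, the β chain of αvβ8, also an activator of latent TGF-β, was the least abundant member. It had 8 reads in the parental line (0.203 RPKM, 0.0876 to 0.400), 1 in subclone 1 (0.0247 RPKM, 0.000625 to 0.138) and 6 in subclone 2 (0.145 RPKM, 0.0530 to 0.315). The ratio of subclone 1 to the parental line was 0.122, and its interval from 0.00274 to 0.908 ended just below 1. The log2 ratio of -1.28 became -0.23 with a pseudocount of 1, so the 2-fold call from 8 and 1 reads was lost. The ratio of subclone 2 to the parental line, 0.712, had an interval from 0.204 to 2.34. ITGB8 maps to chromosome 7 (plus strand, 20330702 to 20415754).

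ITGB8 is also the only member with primers among the candidate genes measured by real-time PCR in the study. They are shown because they mark the part of this scarce mRNA that PCR would read. The product was read from the GENCODE transcript between the primer sites, with the sites in capitals.
ITGB8 forward primer: ACCAGGAGAAGTGTCTATCCAG
ITGB8 reverse primer: CCAAGACGAAAGTCACGGGA
ITGB8 product: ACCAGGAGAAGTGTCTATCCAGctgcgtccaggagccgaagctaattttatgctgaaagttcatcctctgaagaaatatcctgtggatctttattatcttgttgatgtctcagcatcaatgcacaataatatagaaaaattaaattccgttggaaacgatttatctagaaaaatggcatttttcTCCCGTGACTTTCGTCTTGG
The product has 204 bases, all of them coding, and spans exons 3 and 4 of the 14 exons, at chr7:20367155-20379222 of GRCh38 on the plus strand. Both primers matched 4 ITGB8 transcripts and no transcript of another gene without mismatch.

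**Figure D4:**
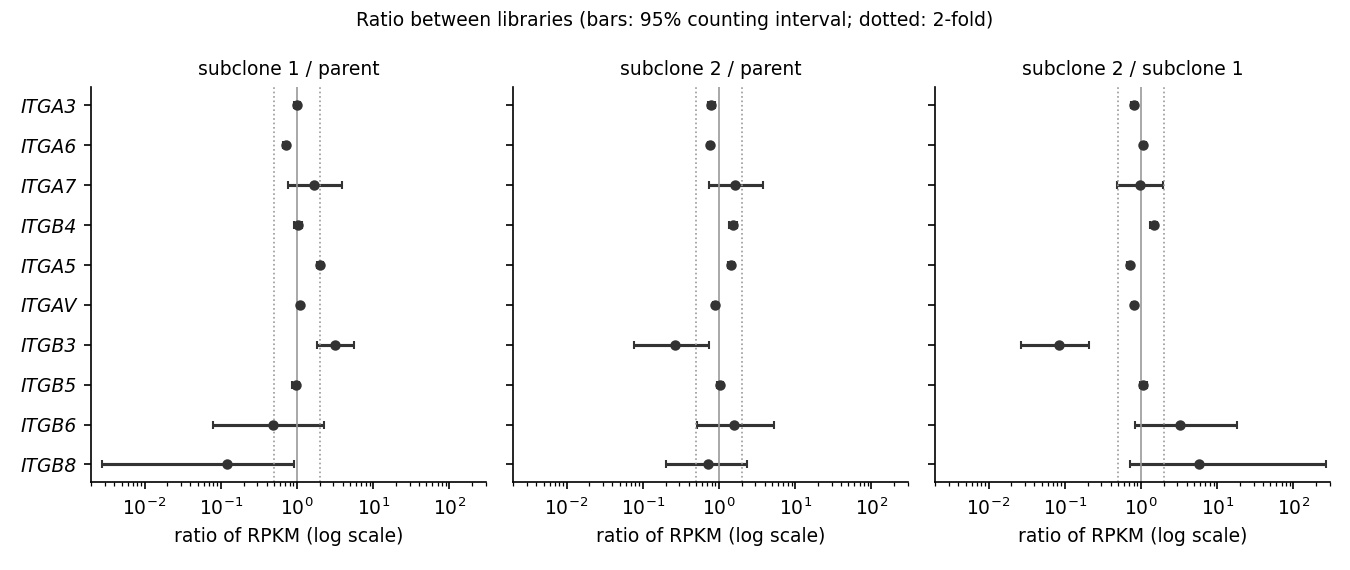
Ratio of RPKM (log scale) for the 10 members in subclone 1 over parent, subclone 2 over parent and subclone 2 over subclone 1, with 95% counting intervals, a solid line at 1 and dotted lines at 2-fold in either direction. The abundant genes have narrow intervals near 1, ITGA5 reaches 2.02 in subclone 1, and ITGB3 goes from 3.14 to 0.264 between the subclones.

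Summed by ligand, the laminin-binding α chains ITGA3, ITGA6 and ITGA7 had 122 RPKM in the parental line, 98.8 RPKM in subclone 1 and 94.2 RPKM in subclone 2. The RGD-binding α chains ITGA5 and ITGAV had 98.6, 145 and 110 RPKM in the same order. Among these members the laminin sum was the larger in the parental line and the RGD sum was the larger in both subclones. These sums were chosen after values were seen and have no interval. ITGA1 and ITGA2 (25.6, 25.7 and 20.3 RPKM in the parental line, subclone 1 and subclone 2) are not members and were left out. The order of the sums in subclone 2 depends on leaving ITGA2 out of the laminin sum, while adding ITGA1 alone would not change it. All α members that pair with ITGB1 together came to 0.764 times the level of ITGB1 in the parental line, 0.685 times in subclone 1 and 0.635 times in subclone 2.

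Of the 13 other integrin subunits listed, out of 16 looked for, 5 had a mean of at least 1 RPKM. ITGA1, the α chain of a collagen and laminin receptor, was the one at least 2-fold higher in each subclone, with 1.07 RPKM in the parental line, 3.29 RPKM in subclone 1 and 6.29 RPKM in subclone 2, and none of the 5 was 2-fold lower in any comparison. The ITGB1 fold was 1.24 for subclone 1 (1.19 to 1.28) and 1.12 for subclone 2 (1.08 to 1.16).

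Among the laminin chains, 10 of 12 were listed and 8 had a mean of at least 1 RPKM. LAMB1, the β1 chain of several laminins, was the one at least 2-fold changed. It had 34.4 RPKM in the parental line, 86.9 RPKM in subclone 1 and 78.6 RPKM in subclone 2, which is 2.52-fold (2.34 to 2.73) and 2.28-fold (2.11 to 2.47) above the parental line. No laminin chain passed 2-fold between the subclones.

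Of the 14 RGD ligands and genes of latent TGF-β, all were listed and 7 had a mean of at least 1 RPKM. Fibronectin (FN1), the ligand of ITGA5, was at 1625 RPKM in the parental line, 1786 RPKM in subclone 1 and 1034 RPKM in subclone 2. It is among the genes whose reads could not be resolved, so it has no interval. Osteopontin (SPP1), which ITGAV receptors bind, was at 603 RPKM in the parental line, 390 RPKM in subclone 1 and 199 RPKM in subclone 2. SPP1 was 0.647-fold in subclone 1 (0.618 to 0.678) and 0.330-fold in subclone 2 (0.311 to 0.350), and in subclone 2 it was the one of the 7 that was lower by at least 2-fold. Vitronectin (VTN), the plasma ligand of ITGAV receptors, had 3, 11 and 1 reads.

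On the cytoplasmic side, 24 of 25 adaptors and focal adhesion genes were listed and 20 had a mean of at least 1 RPKM. PTK2B, a kinase related to focal adhesion kinase, was the one at least 2-fold higher, 2.41-fold in subclone 1 (1.69 to 3.51) and 3.20-fold in subclone 2 (2.27 to 4.58), and none was 2-fold lower. Over the 11370 genes, 4.9% and 5.33% were higher by as much in these comparisons. This single call, like those in the other lists, is therefore not a result about the list. The 7 listed genes of hemidesmosomes and lateral partners stayed within 2-fold in all comparisons. Among them plectin (PLEC), which links ITGB4 to keratin, was at 63.3 RPKM in the parental line, 74.7 RPKM in subclone 1 and 77.9 RPKM in subclone 2.

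Likeness of pattern was measured as the distance between pairs of log2 ratios over the parental line, which over 3 libraries is a description only. Nearest to ITGB3 came CLDN2, a tight junction claudin (7.11, 17.3 and 2.34 RPKM, distance 0.27), MYL9, a myosin light chain (1.47, 6.44 and 0.524 RPKM, distance 0.56), and HAMP, which encodes hepcidin (1.55, 3.03 and 0.492 RPKM, distance 0.62), and no gene lay within 0.25. Nearest to ITGA5 came NAP1L3, HTR1D and PDPR, each at a distance of 0.03, among 124 genes within 0.25, so its pattern was a common one.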

How the data were processed

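Total RNA of 3 cultures (Trizol) gave 1 library each, built with the Illumina TruSeq RNA kit, which does not mark strand. The authors deposited RPKM values per gene, listing genes above 0, and an unlisted gene was set to 0. The submitters' processing notes name the build hg19, while the aligner, counter and annotation are not given in the sources used here. Groups came from the sample titles.

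The deposited files run from most to fewest reads. Totals came from the common step of the values at the end of each file, and the length and reads of a gene were the whole numbers that gave its RPKM and fitted its place in the files, within 1 read or 3% of the median of the rows around it outside the most abundant rows. This resolved 16059 of 16149 genes and left 90. The order held for all members, which is largely built into this fit. The steps were also run on data simulated from the recovered lengths, totals and levels of the resolved genes.

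Ratios were log2 of (RPKM + 0.1). Genes named were the 10 members, ITGB1, FN1, VTN and SPP1, genes of related lists with a mean of at least 1 RPKM and a 2-fold change, and the 3 genes most like ITGB3 and ITGA5, those with the widest range among members with a mean of at least 1 RPKM. Other genes, such as PLEC and the markers named singly, the ratios within a library and the class sums were chosen after values were seen. The members and lists were chosen with earlier results of these data known. Alternatives were other pseudocounts, filters, scalings and a 1.5-fold limit. Positions and transcripts came from GENCODE 29 (GRCh38) and were not mixed with hg19. Python 3.11.15, numpy 2.4.6, pandas 2.3.3, scipy 1.17.1 and matplotlib 3.10.9 were used.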

Additional observations from a re-analysis of the deposited data

Results flagged for a closer look

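ITGB3 and ITGAV lay on opposite sides of the parental line in the subclones, each beyond counting error. For ITGB3 the log2 ratio to that line was 1.54 (subclone 1) and -1.54 (subclone 2), and for ITGAV it was 0.14 (subclone 1) and -0.15 (subclone 2). After division by ACTB the ITGAV value of subclone 1 was 0.0056, so its size depends on the scaling, though it stayed positive. With a pseudocount of 1 the ITGB3 values were 0.97 and -0.58, within 2-fold. With single libraries, the difference between the subclones was not tested between cell lines.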

How the results depend on the processing

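The median log2 ratio of the members moved by less than counting error in all 21 values under the alternatives. That error was the log2 interval width divided by 2, averaged over the 2 members ranked in the middle. For subclone 2 over subclone 1 these included ITGA7, with 19 reads in each, so the limit was wide and easily met. Of the 210 log2 ratios of single members, 199 moved by less than their own counting error. The other 11 moved further, and none of those past 2-fold reversed. The number of members at least 2-fold changed was 3, 1 and 2 for subclone 1 over the parent, subclone 2 over the parent and subclone 2 over subclone 1. With a pseudocount of 1 it was 0, 0 and 1, and at 1.5-fold it was 5 and 3 over the parent. Counts over all genes depended on pseudocount, filter and limit by construction. For subclone 1 over the parent, 557 higher and 207 lower became 347 and 117 with a pseudocount of 1, 1523 and 884 with no filter, 233 and 71 with a mean of at least 5 RPKM and 1317 and 848 at 1.5-fold. For subclone 2 over the parent, 606 and 246 became 380 and 150, 1553 and 941, 253 and 93, and 1444 and 830 under the same settings. Between the subclones, 161 and 158 became 80 and 77, 842 and 902, 43 and 46, and 540 and 467. Division by ACTB for subclone 1 gave 328 lower genes, took the median log2 ratio of all genes from 0.0043 to -0.13 and lowered the share of higher genes from 72.9% to 57.8%. Between the subclones that share went from 50.5% to 64.0% with ACTB and 62.6% with GAPDH, as the median of all genes went from 0.034 to 0.16 and 0.15. No paired analysis was possible because there was a single library per line, and no library could be left out. Depth limits ITGA7, ITGB6 and ITGB8 most, each with fewer than 20 reads per library. It also limits ITGB3, with 18 reads in the parent and 5 in subclone 2.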

Other observations

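Some genes of the ligand list lay below a mean of 1 RPKM and were picked after their values were seen. Tenascin C (TNC), a matrix protein that ITGAV receptors can bind, had 54 reads in the parent (1.58 RPKM) and 2 reads in each subclone (0.0570 RPKM in subclone 1 and 0.0556 RPKM in subclone 2). Its ratio to the parent was 0.0361 in subclone 1 (0.00426 to 0.137) and 0.0352 in subclone 2 (0.00416 to 0.133). EDIL3, a secreted RGD protein, was not listed in the parent and had 7 and 6 reads in the subclones.

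Kindlin-1 (FERMT1) and tensin 3 (TNS3), which bind the tails of β chains, lay near the 2-fold limit in subclone 1 and were not counted past it on the log2 scale of (RPKM + 0.1). FERMT1 was at 13.2 RPKM in the parent, 6.55 RPKM in subclone 1 and 8.93 RPKM in subclone 2, a fold of 0.498 in subclone 1 (0.408 to 0.606) that had a log2 ratio of -0.99 with the pseudocount, short of the limit that the fold itself passed. TNS3 was at 24.1, 46.5 and 38.6 RPKM, a fold of 1.93 in subclone 1 (1.78 to 2.10).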
